A study of Mus musculus with 24 samples.

Results

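Cultures of differentiated C2C12 cells that had been given dexamethasone for 72 h were compared with undifferentiated day 0 myoblasts of the same line. C2C12 is an established clonal mouse myoblast line whose cells stop dividing in low serum and fuse into myotubes with many nuclei. The comparison used 8 of the 24 libraries of the series, 4 in each group, assigned by their labels, and all 24 entered the fit. The dexamethasone cultures had 7 days in medium with 2% fetal bovine serum (FBS) and then 100 µM dexamethasone for 72 h, so they were harvested at day 10. The day 0 myoblasts were harvested near confluence in 10% FBS, without dexamethasone. The other groups were day 7 myotubes, untreated and in 2% FBS, myotubes with dexamethasone for 24 h, and myotubes with vehicle (1% ethanol) for 24 h or 72 h. All libraries are labelled wild type, and ethanol is named in the labels of the vehicle medium alone. Serum, days in culture, fusion and dexamethasone all differ between the main groups, so their shares in a difference cannot be told apart. The vehicle 72 h and day 7 libraries are therefore given beside the results that need them.

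A dividing myoblast passes from G1 into DNA replication when D-type and E-type cyclins with their kinases inactivate the retinoblastoma protein and free the E2F transcription factors, and a later wave of genes drives mitosis. During differentiation the kinase inhibitor p21, encoded by Cdkn1a, and the retinoblastoma protein hold the nuclei of the new myotube out of the cycle, while Myod1 and Myog switch on the genes of the contractile apparatus. Dexamethasone is a synthetic agonist of the glucocorticoid receptor, a transcription factor, and is widely used to induce atrophy of cultured myotubes. After 72 h, treated cultures of this series have higher cell cycle transcripts than their vehicle controls. The question here was how far these 72 h cultures resembled the myoblasts.

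Levels are TPM (relative transcript abundance, scaled for transcript length and library total), as mean ± SD (n = 4) where a mean is given. Differences are on the log2 scale of the deposited normalised values, which is compressed (the differences had a slope of 0.64 on log2 TPM differences), and p-values are limma adjusted p-values over 16257 genes. Genes with an adjusted p under 0.05 are called higher or lower. The tables keep no sequencing depth, and between 12428 and 13030 genes per library had a TPM of at least 1. Nothing in the labels says that each replicate was its own culture, and the p-values then reflect only how these libraries vary, possibly for technical reasons. Replicate 1 of the dexamethasone group stood apart from the other 3. Its mean distance to them was 0.480 (root mean square log2 difference over tested genes), against 0.367 to 0.391 for each of the others, and its summed TPM of 38 collagen and matrix genes was 11317 against 4107 to 6761. Results that rest on it are given with and without it. Vehicle 72 h replicate 1 was the highest of its group for Tsc22d3, Hmga2, Ccnd1 and Myf5 and the lowest for Igf1, and vehicle means include it.

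The fixed myotube markers (Myog, Mymk, Acta1, Myh3, Mylpf, Tnnc1, Ckm and Ttn) all stood above the myoblasts. The fixed myoblast markers followed the labels only in part. Mki67, Cdk1 and Id3 were lower with dexamethasone, while Ccnd1, Id1 and Myf5 were not called, as given below. Acta1, skeletal muscle alpha-actin, had 5829.9, 7874, 8876 and 7752 TPM in dexamethasone replicates 1 to 4 and 107, 79.0, 105 and 60.4 TPM in myoblast replicates 1 to 4. Mki67, a protein of cycling nuclei, had 7.29, 13.7, 3.03 and 4.88 TPM in the dexamethasone libraries and 44.6, 43.5, 52.0 and 38.5 TPM in the myoblasts. The groups did not overlap for either gene, and the treated cultures carried the myotube marker at a high level together with some Mki67 transcript.

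Across all tested genes the dexamethasone libraries lay farther from the myoblasts than from any other group. The mean root mean square log2 difference was 0.913 to day 0 myoblasts (range over pairs of libraries 0.866 to 0.977), 0.665 to day 7 myotubes, 0.571 to dexamethasone 24 h, 0.669 to vehicle 24 h and 0.617 to vehicle 72 h. Dexamethasone libraries differed among themselves by 0.405 and myoblasts by 0.307. Replicates 1 and 2 were the nearest to the myoblasts (0.885 and 0.877), and replicates 3 and 4 were at 0.967 and 0.921. Nearness to myoblasts was not particular to them in replicate 1, which was the nearest treated library to every other group too. Its distance was 0.626 to day 7 myotubes and 0.560 to vehicle 72 h, against 0.675 to 0.682 and 0.594 to 0.671 for the other treated libraries. Without replicate 1 the mean distance to myoblasts was 0.922 and the order of the groups was the same. On the first principal component, with 49.7% of the variance, the 4 dexamethasone libraries stood with the other differentiated libraries, and on the second, with 19.1%, they stood above all other libraries. Their scores on the first, −4.35 to 15.7, overlapped those of day 7 myotubes (−10.8 to 11.1). They lay on the myoblast side of every vehicle 72 h library (20.6 to 34.7), while the myoblasts were at −91.2 to −89.6.

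**Figure D1:**
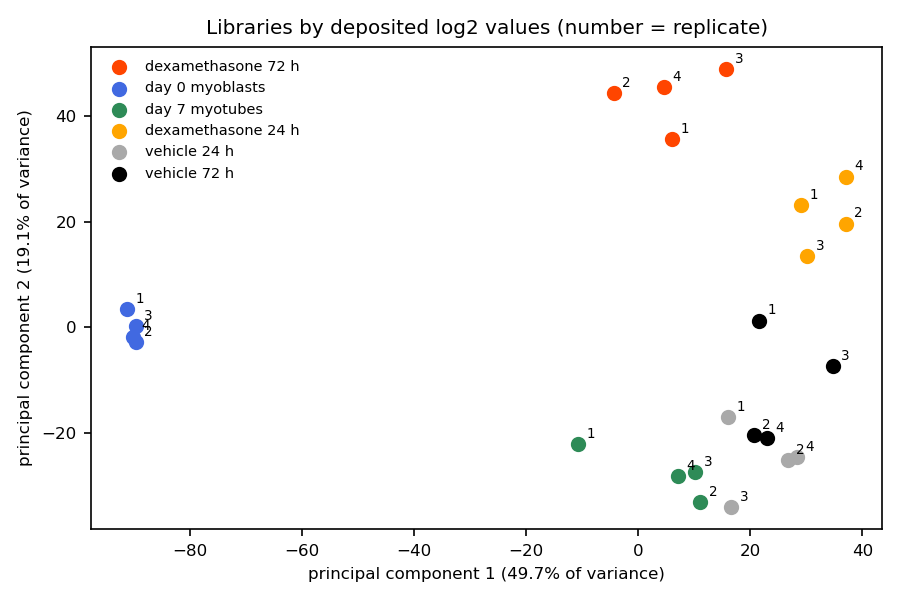
Principal components 1 (x axis, 49.7% of variance) and 2 (y axis, 19.1%) of the deposited log2 values of 16257 genes, with 1 point per library, coloured by group and numbered by replicate. The dexamethasone 72 h libraries are at the top of component 2, and the day 0 myoblasts stand alone at the left of component 1.

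Of the 16257 genes, 10253 (63.1%) differed between dexamethasone cultures and myoblasts. There were 4891 higher (30.1%) and 5362 lower (33.0%), and 2658 of them had a log2 difference of at least 1 in either direction. Which direction held more genes depended on the scaling: with TPM scaled by library medians, 5112 were higher and 4330 lower. These shares are the background for every list below. Without dexamethasone replicate 1 the counts were 4813 (29.6%) and 5370 (33.0%), together 62.6% of genes, and 4622 and 5079 of them were also called with it. By TPM 59.8% of genes were called. The TPM of the groups did not overlap for 24.7% of genes on the higher side and 25.7% on the lower side. The median over all genes with a myoblast mean of at least 0.5 TPM was 92.0% of the myoblast level.

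The 10 largest rises and the 10 largest falls were taken by the difference in deposited log2 values, which does not order genes as TPM folds do. They were taken among genes whose TPM did not overlap between the groups and whose higher group averaged at least 5 TPM. Of the 10 rises, 4 were genes of muscle: Myot, a Z-disc protein with 40.1 ± 13.1 TPM in dexamethasone cultures and 0.0196 ± 0.0101 TPM in myoblasts, Hspb7, a small heat shock protein of muscle with 254 ± 57.6 TPM with dexamethasone and 0.464 ± 0.167 TPM in myoblasts, Ppp1r3a, a glycogen-targeting subunit of protein phosphatase, and Mettl21e, a methyltransferase of muscle. The acute phase serine protease inhibitor Serpina3n had 200.0, 35.5, 231 and 40.6 TPM in the dexamethasone libraries and 0.0209, 0, 0.0104 and 0.0189 TPM in the myoblasts, so it was near or at 0 in every myoblast library. Its close relative Serpina3m, whose reads may be hard to separate from it, was listed at 0 in all 4 myoblast libraries and had 16.3 ± 15.7 TPM with dexamethasone, or 8.81 ± 6.03 TPM without replicate 1. Fabp4, a fatty acid binding protein, was 113-fold higher (75.2 ± 11.9 TPM with dexamethasone against 0.666 ± 0.55 TPM in myoblasts, adjusted p = 2.93e-09), and the myoblast mean was 0.393 TPM without myoblast replicate 1. The other 3 rises were Klk1b26, a kallikrein from a family of closely similar genes, Tm6sf1 and 4930486L24Rik.

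Among the 10 largest falls by the same log2 difference, Hhip, an inhibitor of hedgehog ligands, had 0.0348, 0.0493, 0.0347 and 0.0685 TPM with dexamethasone and 11.0, 2.67, 9.57 and 9.28 TPM in myoblasts. Ptn, the growth factor pleiotrophin, was 88.6-fold lower (0.73 ± 0.861 TPM with dexamethasone against 64.7 ± 12.1 TPM in myoblasts) and Igfbp2, which binds insulin-like growth factors, 49.5-fold lower (15.3 ± 4.22 TPM with dexamethasone against 757 ± 181 TPM in myoblasts). Both stayed low without replicate 1, at 0.317 ± 0.299 and 13.3 ± 1.49 TPM. The proliferin genes Prl2c2 and Prl2c3, which encode placental hormones of the prolactin family, were 18.6-fold and 28.0-fold lower, at 13.3 ± 14.7 and 21.6 ± 23.8 TPM with dexamethasone against 247 ± 44.8 and 604 ± 164 TPM in myoblasts. Without dexamethasone replicate 2, their highest treated library, they were 38.4-fold and 54.8-fold lower. These paralogs are near-identical and the split of reads between them is uncertain. The other 5 falls were Sprr1a, Cnn1 (calponin 1, an actin-binding protein of smooth muscle), Ppp2r2b, Nefl (a neurofilament subunit) and Gm26083, which among the treated libraries was above 0 TPM in replicate 2 alone.

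The contractile programme stood far above the myoblast level. All 39 tested sarcomere genes were higher in dexamethasone cultures, beside 30.1% of all genes, with a median log2 difference of 3.26 and a median of 6254% of the myoblast level. Tnnc1, the slow and cardiac troponin C, had 2862, 3808, 3995 and 4219 TPM with dexamethasone and 56.6, 57.7, 60.8 and 40.3 TPM in myoblasts. The lowest treated library was far above the highest myoblast library, and the mean was 69.1-fold higher (adjusted p = 7.79e-17). The fast myosin light chain Mylpf was 62.2-fold, the fast myosin heavy chain Myh1 110.2-fold and the giant elastic protein titin (Ttn) 21.9-fold higher. The embryonic myosin Myh3 was 8.85-fold higher and cardiac actin Actc1 16.4-fold. Vehicle 72 h cultures had 8177 ± 1317 TPM of Mylpf and 3501 ± 467 TPM of Tnnc1, beside 8302 ± 685 and 3721 ± 597 TPM with dexamethasone. Mybpc1, a slow myosin-binding protein, had the largest log2 difference of the list, 4.44 ± 0.51 (SE), and 149-fold more TPM, while by TPM Myoz2, a Z-disc protein, had the largest fold among the 32 genes with a myoblast mean of at least 0.5 TPM (240.1-fold). Dexamethasone replicate 1 held 160.3 TPM of Mybpc1, against 35.2 to 52.5 in the other dexamethasone libraries (92.5-fold without replicate 1).

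Genes of excitation-contraction coupling, which turn the action potential into calcium release, had 20 of 21 higher and none lower. Ryr1, the calcium release channel, reached 71.9 ± 10.7 TPM with dexamethasone against 1.94 ± 0.367 TPM in myoblasts, and Atp2a1, the calcium pump of the reticulum, 923 ± 94.9 TPM with dexamethasone against 11.8 ± 3.11 TPM in myoblasts. The member that did not pass was the chloride channel gene Clcn1. Of 16 genes of muscle energy supply, 13 were higher and 2 lower, the glycolytic enzyme gene Eno1 and Cox6a1, the non-muscle form of a cytochrome oxidase subunit. Creatine kinase Ckm had 629.6, 115, 145 and 189 TPM with dexamethasone and 6.57, 3.11, 4.51 and 3.91 TPM in myoblasts. Replicate 1 was the highest, but every treated library exceeded every myoblast library, and 11 genes of the list were called higher without it.

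Regulators of the myogenic state went in several directions. Of 22 tested, 9 were higher, 6 lower and 7 not called. Myog, the factor of terminal differentiation, was 17.5-fold higher (1159 ± 337 TPM with dexamethasone against 66.2 ± 16.4 TPM in myoblasts, adjusted p = 4.5e-14), and Mymk, the membrane protein of fusion, 43.1-fold higher (1083 ± 242 TPM with dexamethasone against 25.1 ± 6.63 TPM in myoblasts). Cav3, the muscle caveolin, had the largest rise at 255-fold. Myod1, which commits cells to the muscle lineage, was at 122 ± 17.1 TPM in dexamethasone cultures and 136 ± 33.9 TPM in myoblasts (adjusted p = 0.318), and it was called lower without myoblast replicate 2.

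Myf5, which marks committed myoblasts, had 69.0, 50.8, 75.1 and 64.4 TPM in the dexamethasone libraries and 72.3, 28.6, 38.0 and 37.0 TPM in the myoblasts. The ranges overlapped through myoblast replicate 1, and the difference of 0.46 ± 0.20 (SE) did not pass (adjusted p = 0.0547). It passed under 6 alternative settings, among them the fit without myoblast replicate 1. Vehicle 72 h cultures held 10.8 ± 4.75 TPM and day 7 myotubes 11.7 ± 6.12 TPM. Id1 and Id3 encode inhibitors of Myod1 and its relatives that serum sustains in myoblasts. Id1 was at 133 ± 28.5 TPM with dexamethasone and 123 ± 26.1 TPM in myoblasts (adjusted p = 0.639), while Id3 was at 82.0 ± 69.7 TPM with dexamethasone against 328 ± 41.7 TPM in myoblasts and so 4.00-fold lower (adjusted p = 5.06e-06), or 6.78-fold without dexamethasone replicate 1. Msc, a repressor of myogenic factors, was 18.0-fold lower.

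Markers of satellite cells and of the quiescent reserve cells that remain unfused went in both directions. Of 15 tested, 5 were higher and 8 lower. Their median was 72.8% of the myoblast level, beside 124% in vehicle 72 h cultures and 109% in day 7 myotubes. Against vehicle, 7 were lower with dexamethasone and 1 higher, beside 15.2% of all genes in each direction. Pax7, the satellite cell factor, had 1.66, 0.754, 0.827 and 0.37 TPM in the dexamethasone libraries and 3.63, 4.71, 6.94 and 4.96 TPM in the myoblasts, with every treated library below every myoblast library (adjusted p = 1.6e-07). Cd34, a surface sialomucin, was 6.22-fold lower at 16.3 ± 4.41 TPM with dexamethasone against 101 ± 23.1 TPM in myoblasts. Spry1, a growth factor feedback inhibitor, was 6.96-fold higher at 24.0 ± 3.98 TPM, beside 28.6 ± 2.75 TPM in vehicle 72 h cultures.

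For each of the 3 lists of cell cycle genes, the median level in dexamethasone cultures, as percent of the myoblast level, lay between that of vehicle 72 h cultures and that of myoblasts. Single genes did not all do so. Among those tested, Rfc3, Cdk4 and E2f3 had no more TPM with dexamethasone than with vehicle, and Ccnd3, Myc and E2f2 had more than in myoblasts. In bulk RNA, fewer cells of a type and less RNA per cell cannot be told apart. All 38 genes of mitosis and cytokinesis were lower than in myoblasts (median log2 difference −2.07), beside 33.0% of all genes, and all 38 were higher than in vehicle 72 h cultures, beside 15.2% of all genes. All 33 DNA replication genes were lower than in myoblasts (median −1.18), and 31 were higher than in vehicle cultures. Of 17 G1 cyclins, kinases and E2F factors, 13 were lower than in myoblasts, 1 higher and 3 not called (median −0.62), and 11 were higher than in vehicle cultures (10 without replicate 1 of both groups). The same counts against myoblasts were found without replicate 1.

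Expressed as a percent of the myoblast level, the median of the mitosis genes was 17.1% in dexamethasone cultures, 11.4% in day 7 myotubes and 2.55% in vehicle 72 h cultures. For DNA replication the medians were 33.6%, 16.1% and 10.6%, and for the G1 genes 54.7%, 43.0% and 36.0% in the same order of groups. No mitosis or replication gene reached the myoblast mean. Single mitosis genes ran from 10.5% (Cdc25c, the phosphatase that activates Cdk1) to 29.3% (Mybl2), and replication genes from 21.1% (Tk1, thymidine kinase) to 72.2% (Rrm2, a subunit of ribonucleotide reductase). At 24 h no list median was higher with dexamethasone than with vehicle. The medians were 1.74% and 3.26% for mitosis, 8.00% and 8.80% for replication and 35.4% and 40.3% for the G1 genes.

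The 4 dexamethasone 72 h libraries were unequal in their cell cycle transcripts. Mitosis genes stood at a median of 15.5, 31.9, 8.19 and 13.1% of the myoblast level in dexamethasone replicates 1 to 4 and at 3.70, 2.86, 0.515 and 2.91% in vehicle 72 h replicates 1 to 4. The lowest treated library exceeded the highest vehicle library. Day 7 myotubes had 20.9, 6.07, 8.40 and 10.9%, and replicates 1, 3 and 4 of these lay within the treated range. Replication genes stood at 31.3, 49.5, 22.6 and 36.3% in the dexamethasone libraries, 26.5, 11.0, 12.9 and 14.5% in the day 7 myotubes and 11.9, 11.1, 8.29 and 10.6% in the vehicle 72 h libraries, so treated and day 7 libraries overlapped there too, through day 7 replicate 1. Dexamethasone replicate 2 was the highest of its group for all 33 replication and all 38 mitosis genes, and replicate 3 the lowest for 32 and 37 of them. Without replicate 2 the mitosis median was 12.0% and without replicate 1 it was 18.2%, both far below the myoblasts.

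**Figure D2:**
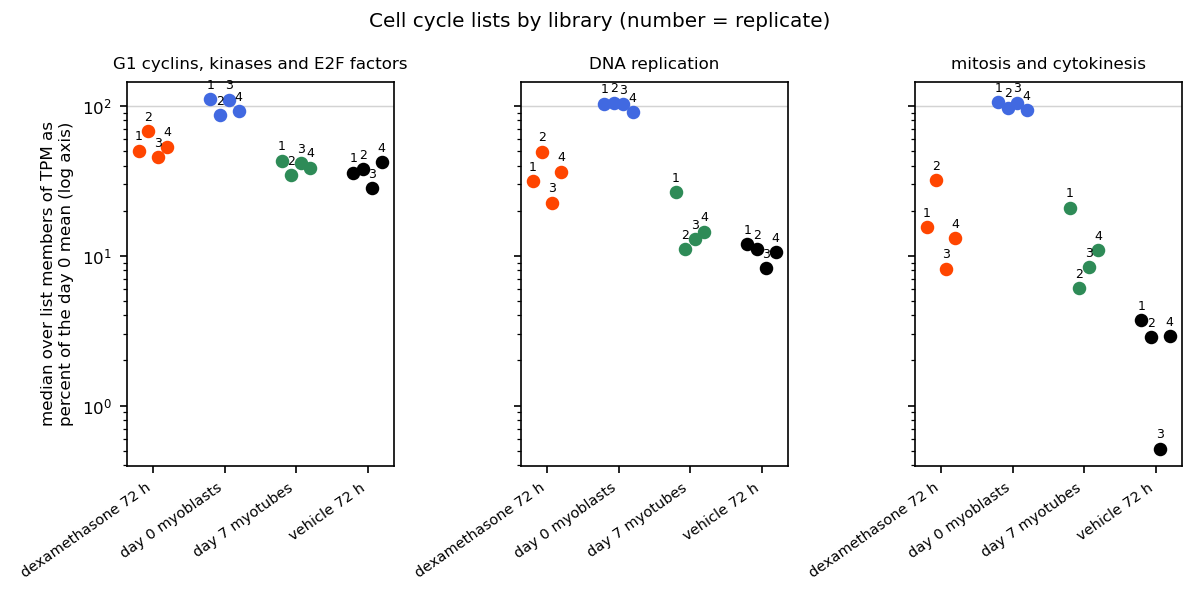
Median TPM of each cell cycle list as percent of the day 0 mean (y axis, log scale), with 1 point per library, numbered by replicate, for dexamethasone 72 h, day 0 myoblasts, day 7 myotubes and vehicle 72 h (x axis). In dexamethasone libraries the G1 genes stand at 45.3% to 67.9% of the myoblast level, the replication genes at 22.6% to 49.5% and the mitosis genes at 8.19% to 31.9%.

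Promoters of 3 genes are shown because the replication wave and the mitotic wave are classically driven through different DNA elements near the start of their genes. E2F factors act at elements searched here as the letters TTTCCCGC, TTTCGCGC, TTTGCCGC and TTTGGCGC. The cell cycle genes homology region (CHR), searched as TTTGAA and TTCGAA, is used by mitotic genes, often beside CCAAT boxes. The sequences are RefSeq's, from build GRCm38.p6, and cover the 250 bases before the annotated start, 5′ to 3′ on the gene's strand. Capitals mark matches to the E2F-type and CHR-type letters on either strand. They are given for Mcm5 on the plus strand of chr8:75109259-75109508, Cdk1 on the minus strand of chr10:69352913-69353162 and Top2a on the minus strand of chr11:99024190-99024439.
Mcm5: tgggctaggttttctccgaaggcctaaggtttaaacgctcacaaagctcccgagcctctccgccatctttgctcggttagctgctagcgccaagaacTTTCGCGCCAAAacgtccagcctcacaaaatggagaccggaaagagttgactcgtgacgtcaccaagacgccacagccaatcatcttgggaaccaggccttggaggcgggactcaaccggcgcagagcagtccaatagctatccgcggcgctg
Cdk1: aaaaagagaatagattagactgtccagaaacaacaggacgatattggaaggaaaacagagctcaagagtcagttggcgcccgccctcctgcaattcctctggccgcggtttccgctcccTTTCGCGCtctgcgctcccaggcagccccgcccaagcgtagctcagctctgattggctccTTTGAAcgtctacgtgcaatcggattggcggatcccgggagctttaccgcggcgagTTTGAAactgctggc
Top2a: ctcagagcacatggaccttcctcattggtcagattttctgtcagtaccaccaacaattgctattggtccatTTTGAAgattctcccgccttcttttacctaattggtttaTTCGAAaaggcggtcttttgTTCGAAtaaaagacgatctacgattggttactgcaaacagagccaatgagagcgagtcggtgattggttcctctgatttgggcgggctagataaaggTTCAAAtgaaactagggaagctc

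Mcm5 holds TTTCGCGC and, overlapping it on the other strand, TTTGGCGC. Cdk1 holds TTTCGCGC and TTTGAA in 2 places, and Top2a holds 4 CHR-type matches and no E2F-type match. Over the list members with a promoter in the table, E2F-type letters were found in 9 of 28 replication genes (32.1%), 6 of 14 G1 genes (42.9%), 1 of 32 mitosis genes (3.12%) and 0 of 30 sarcomere genes, beside 583 of 27025 genes of the table (2.16%). CHR-type letters were found in 12 of 32 mitosis genes (37.5%), 6 of 28 replication genes (21.4%), 5 of 14 G1 genes (35.7%) and 1 of 30 sarcomere genes (3.33%), beside 19.6% of all genes. A CCAAT box on either strand was found in 75.0% of the mitosis promoters, 64.3% of the replication promoters and 37.5% of all. A match describes these letters in this window and is not a bound site.

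Mcm5, a subunit of the replicative helicase, had 18.7, 30.3, 11.9 and 22.4 TPM in dexamethasone cultures and 73.0, 75.2, 70.0 and 63.7 TPM in myoblasts. The highest treated library, replicate 2, was below the lowest myoblast library, and the difference was −1.42 ± 0.33 (SE, adjusted p = 0.000662). Vehicle 72 h cultures had 2.06 ± 1.14 TPM. Pcna, the sliding clamp of DNA polymerase, was at 169.9 ± 37.5 TPM with dexamethasone against 308 ± 19.1 TPM in myoblasts (55.2% of the myoblast level) and Cdc6, a licensing factor, at 5.25 ± 1.78 TPM with dexamethasone against 16.1 ± 2.01 TPM in myoblasts (32.6%).

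Rrm2 had 221, 371, 228 and 261 TPM in the dexamethasone libraries and 391, 363, 411 and 332 TPM in the myoblasts. Treated replicate 2 lay within the myoblast range, and the difference was called (adjusted p = 0.0108) but not after each library's TPM were scaled by the library median or by TPM without replicate 1.

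Cdk1, the kinase that starts mitosis, had 78.0, 138, 39.5 and 65.9 TPM with dexamethasone and 391, 363, 372 and 373 TPM in myoblasts, and the groups did not overlap (adjusted p = 2.41e-06). Its partner Ccnb1 (cyclin B1) was 6.30-fold lower (9.54-fold without dexamethasone replicate 2), the mitotic kinase Plk1 7.20-fold lower and the topoisomerase Top2a 5.14-fold lower than in myoblasts. Against vehicle 72 h cultures these genes were 5.12-fold (Cdk1), 7.60-fold (Ccnb1), 6.34-fold (Plk1) and 6.85-fold (Top2a) higher. Mki67, with its values given above, was 6.19-fold lower than in myoblasts (adjusted p = 0.000148) and 7.69-fold higher than in vehicle cultures (adjusted p = 0.000821).

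Among the G1 genes, Ccnd1, Myc and E2f2 were not called different from myoblasts. Ccnd1, cyclin D1, had 78.8, 119, 78.0 and 88.0 TPM in dexamethasone cultures and 155, 108, 151 and 144 TPM in myoblasts. Treated replicate 2 lay inside the myoblast range, and the difference of −0.49 ± 0.34 (SE) was not called (adjusted p = 0.216), although it was called when the 2 groups were fitted alone. Vehicle 72 h cultures had 8.85 ± 6.06 TPM and day 7 myotubes 11.2 ± 10.1 TPM. The growth regulator Myc had 38.3, 40.2, 49.1 and 39.3 TPM with dexamethasone and 36.9, 35.1, 47.2 and 34.7 TPM in myoblasts (difference 0.08 ± 0.10, adjusted p = 0.459), beside 20.4 ± 4.03 TPM with vehicle.

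Other G1 genes stayed below the myoblasts. Ccnd2 was at 4.21 ± 0.46 TPM with dexamethasone against 10.4 ± 4.09 TPM in myoblasts, Ccne1 (cyclin E1) at 11.8 ± 4.47 TPM with dexamethasone against 28.0 ± 2.08 TPM in myoblasts, E2f1 at 14.5 ± 2.11 TPM with dexamethasone against 26.5 ± 3.43 TPM in myoblasts, and E2f7, a repressor that E2F factors induce, at 3.57 ± 1.40 TPM with dexamethasone against 16.5 ± 3.79 TPM in myoblasts. Ccnd3, the cyclin D that differentiated muscle retains, was the single member called higher than in myoblasts, 1.63-fold (229 ± 2.75 TPM with dexamethasone against 140.2 ± 27.4 TPM in myoblasts, adjusted p = 0.000102).

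Cdkn1a, the inhibitor that holds differentiated muscle nuclei out of the cycle, was far above its myoblast level. It had 1435, 2827, 2322 and 2424 TPM in dexamethasone cultures and 225, 135, 178 and 169.9 TPM in myoblasts. The mean was 12.7-fold higher (adjusted p = 5.7e-13) with no overlap, and vehicle 72 h cultures had 2060.2 ± 241 TPM. The retinoblastoma gene Rb1 was 2.52-fold higher (55.7 ± 10.4 TPM with dexamethasone against 22.1 ± 5.22 TPM in myoblasts), while its relative Rbl1 (p107), itself an E2F-induced gene, was 2.72-fold lower. Of 8 tested inhibitors and retinoblastoma family genes, 2 were higher and 4 lower. Cdkn2c (p18) was among the lower ones, at 25.1 ± 4.79 TPM with dexamethasone against 49.9 ± 2.44 TPM in myoblasts.

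**Figure D3:**
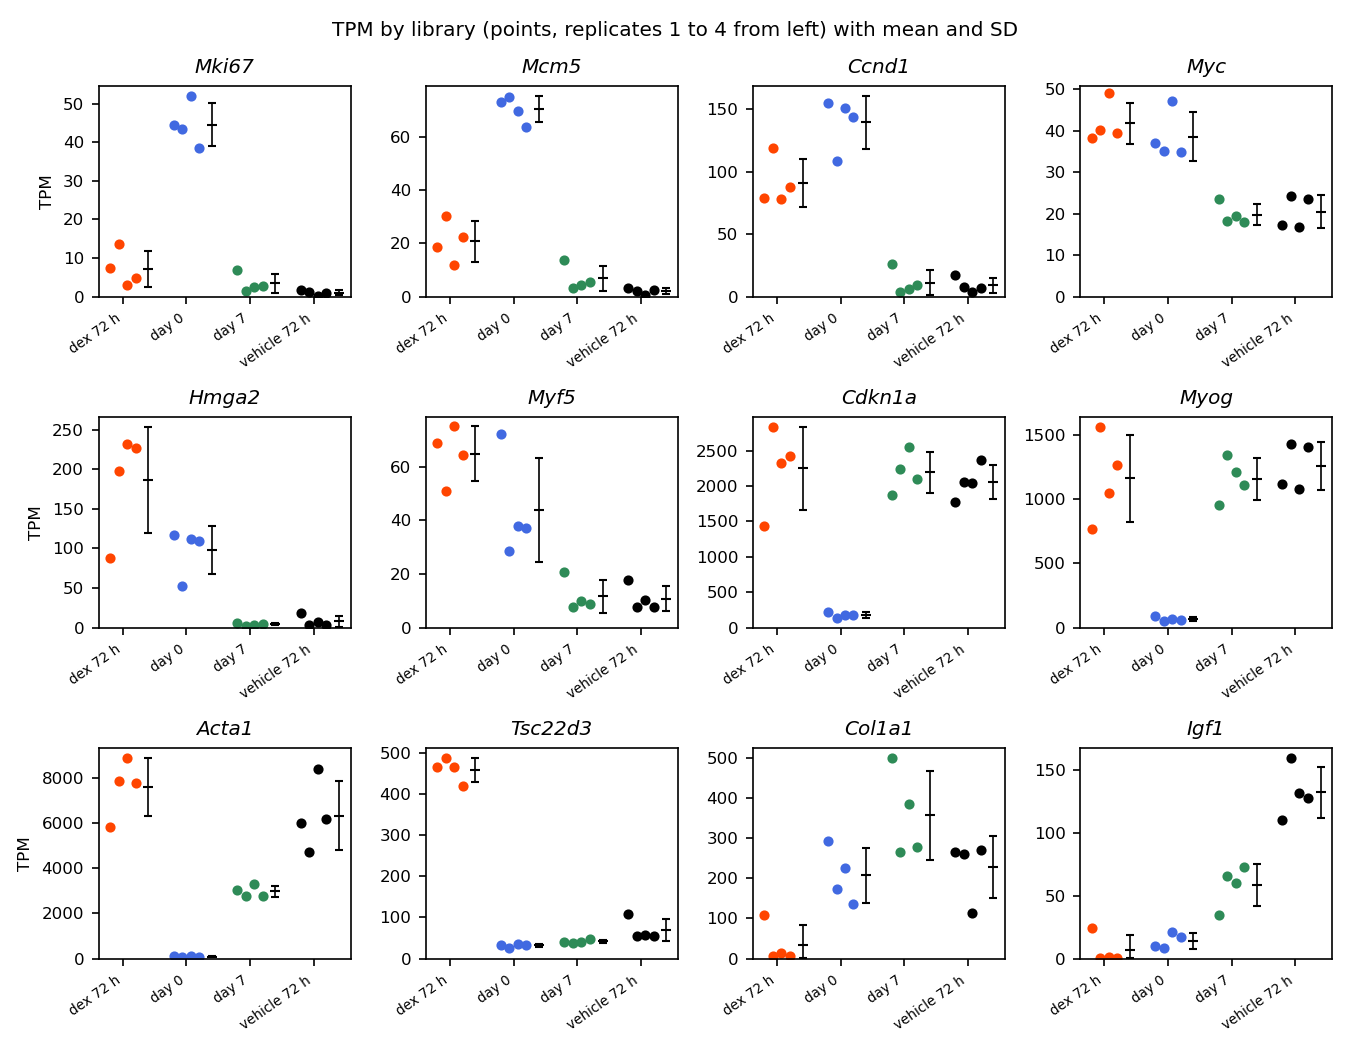
TPM (y axes, from 0) of 12 genes in each library of dexamethasone 72 h, day 0 myoblasts, day 7 myotubes and vehicle 72 h (x axes), with replicates 1 to 4 from left to right and the mean ± SD (n = 4) at the right of each group. Myc, Ccnd1, Hmga2 and Myf5 in dexamethasone cultures reach the myoblast range, Mki67 and Mcm5 stay below it, and Cdkn1a, Myog and Acta1 stand far above it.

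To ask whether dexamethasone moved cultures towards the myoblast profile, the genes it changed against vehicle at 72 h were set beside another comparison. That comparison was day 0 myoblasts against day 7 myotubes, and the pair had no library in common. Both came from the same fit, with a shared spread per gene and values normalised together, so their calls are not independent. Of the 2466 genes higher with dexamethasone than with vehicle (15.2% of tested genes), 1519 (61.6%) were also higher in myoblasts than in day 7 myotubes, beside 29.8% of all tested genes. They were 31.4% of the 4841 genes higher in myoblasts. Of the 2465 genes lower with dexamethasone (15.2%), 1245 (50.5%) were also lower in myoblasts than in day 7 myotubes, beside 30.5% of all tested genes, and they were 25.1% of the 4956 such genes. The opposite direction was found for 14.9% of the higher and 13.9% of the lower genes. Without replicate 1 of both 72 h groups the shared shares were 58.4% and 48.9%, and by TPM 66.2% and 45.9%. All calls between myoblasts and day 7 myotubes made up 60.3% of the tested genes, or 58.3% by TPM.

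Of the 1519 shared genes that were higher, 954 were still lower in dexamethasone cultures than in myoblasts, 439 were not called and 126 were higher. The median over the 1479 with a myoblast mean of at least 0.5 TPM was 70.5% of the myoblast level. These genes were chosen with the dexamethasone and myoblast libraries themselves, so this level is a description.

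Growth-associated genes of myoblasts went in both directions. Hmga2, a chromatin protein of embryonic and dividing cells, had 88.5, 198, 232 and 227 TPM in dexamethasone cultures and 117, 52.9, 112 and 109.8 TPM in myoblasts, and 7.91 ± 6.84 TPM with vehicle. The treated libraries other than replicate 1 all exceeded the myoblasts. The difference of 0.70 ± 0.29 (SE) was called (adjusted p = 0.0433, 0.00873 without replicate 1), but not by TPM (adjusted p = 0.115) nor in 9 of the other 15 settings, 6 of which leave out a library. H19, a maternally expressed imprinted RNA that rises in differentiating muscle, was 8.83-fold higher (7510.5 ± 447 TPM with dexamethasone against 850.4 ± 289.8 TPM in myoblasts), and Igf2, its paternally expressed neighbour, 6.33-fold higher at 66.2 ± 55.3 TPM with dexamethasone against 10.5 ± 4.81 TPM in myoblasts, or 3.69-fold without dexamethasone replicate 1. Of the 13 tested genes of this oncofetal list, these 3 were higher and 7 lower, Nefl 14.5-fold. Over the 10 with a myoblast mean of at least 0.5 TPM the median was 70.3% of the myoblast level, or 79.8% without replicate 1. It was 7.45% in vehicle 72 h cultures and 4.87% in day 7 myotubes. Against vehicle, 9 of the 13 were higher with dexamethasone and 0 lower, beside 15.2% of all genes in each direction.

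Immediate early genes and feedback genes of the ERK pathway, which growth factors in serum activate, were divided evenly, 8 of 20 higher and 8 lower. Fosl1, an AP-1 subunit of dividing myoblasts, had 23.2, 35.2, 32.4 and 27.8 TPM with dexamethasone and 56.9, 35.6, 58.0 and 47.0 TPM in myoblasts (adjusted p = 0.00344), beside 3.36 ± 1.47 TPM with vehicle. The call against myoblasts was not made by TPM without dexamethasone replicate 1. Dusp6, the phosphatase that limits ERK, was 1.56-fold higher (50.3 ± 11.3 TPM with dexamethasone against 32.3 ± 8.47 TPM in myoblasts, adjusted p = 0.00702), with overlapping ranges. Of 6 genes of the plasminogen system, 3 were lower than in myoblasts, 1 higher and 2 not called. Their median was 75.9% of the myoblast level, beside 32.9% in vehicle 72 h cultures. Against vehicle, 4 were higher and 1 lower. The receptor Plaur was 3.85-fold and the protease Plau 5.61-fold lower than in myoblasts. Dexamethasone replicate 1 held 28.5 TPM of Plau, against 11.0 to 13.3 TPM in the other dexamethasone libraries.

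The machinery of cell growth was lower in part. Of 34 cytosolic ribosomal protein genes, 31 were lower and none higher, with a median of 64.5% of the myoblast level, for example Rpl3 at 132 ± 6.28 TPM with dexamethasone against 276 ± 19.5 TPM in myoblasts. Ribosome biogenesis factors had a median of 96.0%, with 10 of 26 lower, 3 higher and 13 not called. Their median in vehicle 72 h cultures was 75.0% of the myoblast level. Against vehicle, 19 of the 26 were higher with dexamethasone and 0 lower, beside 15.2% of all genes in each direction. The nucleolar proteins Npm1 and Ncl were 2.41-fold and 1.59-fold lower, and Rrp12, a factor of ribosomal RNA processing, 3.09-fold higher. The higher count was 5 without replicate 1 and 7 with TPM scaled by library medians. Of 23 cholesterol synthesis genes, 21 were lower (median 38.6%), among them Hmgcs1, which makes the precursor of mevalonate, at 59.5 ± 16.1 TPM with dexamethasone against 166 ± 12.5 TPM in myoblasts. Nuclear genes of the respiratory chain had 16 of 29 higher and 1 lower, with a median of 124%, and Ndufs3, a subunit of complex I, was 1.53-fold higher. In vehicle 72 h cultures the medians were 62.0% for the ribosomal proteins, 46.0% for cholesterol synthesis and 115% for the respiratory chain. Dexamethasone and vehicle thus stood at similar levels for these lists.

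Targets of the glucocorticoid receptor separated the treated cultures from the myoblasts, which had not received dexamethasone. Of 27 tested, 20 were higher and 0 lower, with a median of 266% of the myoblast level. Without replicate 1 the counts were 19 and 2. Tsc22d3 (GILZ), a leucine zipper protein that glucocorticoids induce, had 466, 489.8, 466 and 420.1 TPM with dexamethasone and 33.8, 25.6, 35.5 and 33.0 TPM in myoblasts. Treated libraries lay close together and far above every myoblast library (14.4-fold, adjusted p = 5.74e-14). Vehicle 72 h cultures had 68.9 ± 26.2 TPM, with 108 TPM in replicate 1 and 53.6 to 58.1 TPM in the others. Fkbp5, a co-chaperone of the receptor, was 8.28-fold higher (149 ± 32.4 TPM with dexamethasone against 18.0 ± 0.81 TPM in myoblasts) and the clock gene Per1 3.80-fold higher. Zbtb16 and Klf15, transcription factors induced by glucocorticoids, had 2.79 ± 0.64 and 5.34 ± 3.19 TPM with dexamethasone and 0.00198 ± 0.00397 and 0.0714 ± 0.0479 TPM in myoblasts. Acute phase and transport genes of the dexamethasone response, a list chosen with earlier results of these data known, had 10 of 12 higher. Only 2 of the 14 listed had a myoblast mean of at least 0.5 TPM. For most members a fall could therefore hardly be seen, and the count is a description. Ch25h, a cholesterol hydroxylase, was lower (0.886 ± 0.791 TPM with dexamethasone, or 0.5 ± 0.215 TPM without replicate 1, against 2.11 ± 0.45 TPM in myoblasts). Summed TPM of the list was 104.5 in vehicle 72 h replicate 1 and 16.9 to 20.7 in the other vehicle 72 h libraries.

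Of 16 ubiquitin ligases and regulators of atrophy, 10 were higher than in myoblasts and 4 lower. Trim63 (MuRF1), a ligase of sarcomere proteins, had 54.8, 101, 94.2 and 82.2 TPM with dexamethasone and 0.609, 0.517, 0.699 and 0.3 TPM in myoblasts. The gap was 156-fold, beside 45.8 ± 7.08 TPM in vehicle 72 h cultures. Fbxo32 (atrogin-1) was 6.39-fold higher, at 64.8 ± 11.9 TPM with dexamethasone against 10.1 ± 2.25 TPM in myoblasts, with 32.6 ± 9.48 TPM in vehicle cultures. The ligase gene Nedd4 was 1.68-fold lower.

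**Figure D4:**
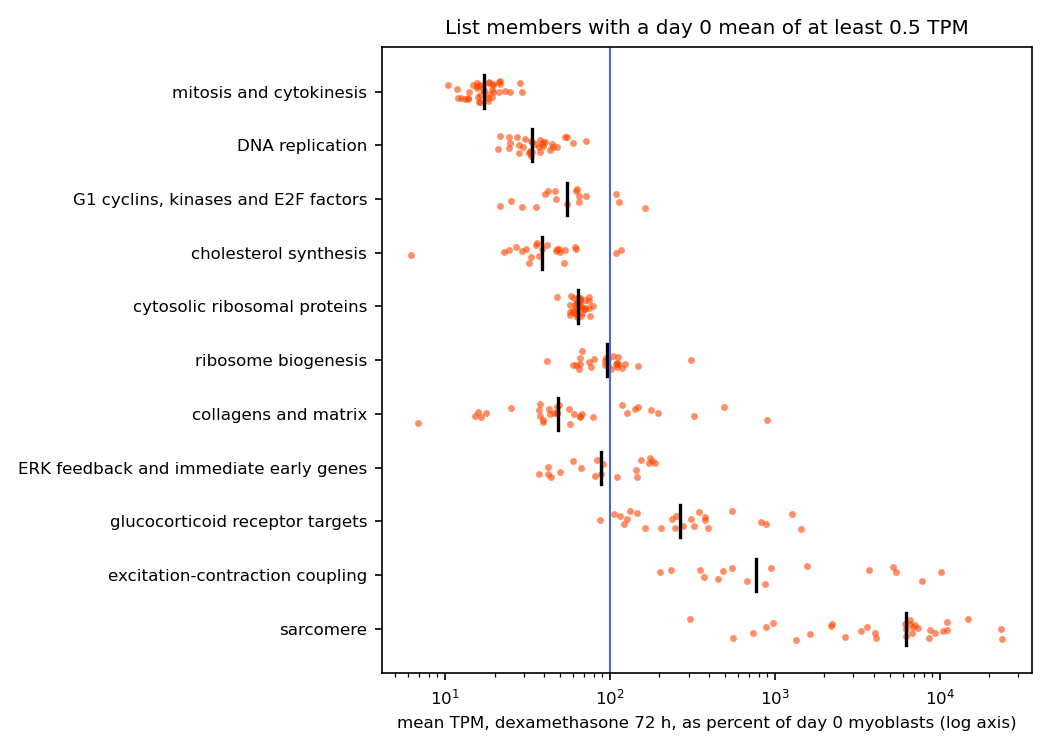
Mean TPM in dexamethasone 72 h cultures as percent of the day 0 myoblast mean (x axis, log scale) for each gene of 11 lists (rows), 1 point per gene with a myoblast mean of at least 0.5 TPM, the list median as a black bar and 100% as a blue line. Mitosis and replication genes lie left of the line, ribosome biogenesis genes on both sides of it, and sarcomere genes at a median of 6254%.

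Collagen and matrix genes were mostly below the myoblast level, and replicate 1 was the highest dexamethasone library for 29 of the 34 genes with a treated mean of at least 0.5 TPM. Of 37 tested, 23 were lower and 6 higher, and 23 and 4 without replicate 1. The median percent of the myoblast level was 96.1, 32.5, 46.5 and 27.6% in dexamethasone replicates 1 to 4, so replicate 1 stood near the myoblasts and the other 3 well below. Over the group it was 48.6%, or 35.8% without replicate 1. Vehicle 72 h cultures stood at 152% and day 7 myotubes at 143%, so both lay above the myoblasts. Against vehicle, 26 of the 37 were lower with dexamethasone and 4 higher, beside 15.2% of all genes in each direction. Col1a1, a chain of fibrillar collagen, had 109, 6.93, 14.6 and 5.95 TPM with dexamethasone and 293, 174, 226 and 136 TPM in myoblasts. It was 6.07-fold lower (adjusted p = 1.7e-05), or 22.7-fold without replicate 1. Vehicle 72 h libraries had 113 to 272 TPM of Col1a1. Timp3, an inhibitor of matrix proteases, was 5.64-fold lower and 11.0-fold without replicate 1, and Loxl2, a crosslinking enzyme, 14.6-fold lower. Ccn2, a matricellular protein, was 4.92-fold higher (500.0 ± 75.1 TPM with dexamethasone against 102 ± 43.0 TPM in myoblasts).

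The axis of insulin-like growth factors behaved unevenly, with 7 of 26 genes higher and 12 lower. Igf1, the ligand, had 24.2, 0.716, 1.39 and 0.365 TPM in the dexamethasone libraries and 9.63, 8.26, 21.4 and 17.2 TPM in the myoblasts. Replicate 1 exceeded every myoblast library and the other 3 lay below all of them. The group mean was 2.12-fold lower (adjusted p = 0.00642), and 17.1-fold lower without replicate 1, and the call was lost when the 2 groups were fitted alone. Vehicle 72 h cultures had 132 ± 20.5 TPM. Igfbp5, a binding protein of muscle, was at 408 ± 44.7 TPM with dexamethasone and 342 ± 116 TPM in myoblasts (adjusted p = 0.316).

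Genes of stress fibres and the smooth muscle cytoskeleton, which spread myoblasts express, were lower for 10 of 15 members and higher for 1, Mylk. Their summed level was 3149 to 5001 TPM in dexamethasone libraries and 8173 to 12189 TPM in myoblasts. It was also below the myoblasts in vehicle 72 h libraries (3953 to 5579 TPM) and day 7 myotubes (4308 to 6563 TPM). The median percent of the myoblast level was 41.9% with dexamethasone, 45.9% with vehicle and 49.4% at day 7. Vim, the intermediate filament vimentin, was 2.46-fold lower at 1851 ± 304 TPM with dexamethasone against 4546 ± 482 TPM in myoblasts.

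Markers of other cell types were examined because unfused cells can take another fate. Of 12 adipocyte markers 6 were tested, with 3 higher (Fabp4, Cebpa and Slc2a4) and 1 lower (Pparg, the adipogenic receptor, at 3.71 ± 0.688 TPM with dexamethasone against 10.3 ± 0.774 TPM in myoblasts). Adipoq, Lep, Plin1, Cidec, Cfd and Retn, the defining genes of mature fat cells, did not pass the filter on low values and were under 0.5 TPM in all 8 libraries, Lep and Cfd at 0. The list summed to 128 to 187 TPM with dexamethasone and 33.2 to 72.6 TPM in myoblasts, and these sums include Fabp4, whose values are given above. Whether an adipocyte fate had a part in the rise of Fabp4 was not tested. Of 12 osteoblast and cartilage markers 7 were tested, with 0 higher and 4 lower (3 without replicate 1). The list summed to 3300.3 to 5026 TPM with dexamethasone and 2553 to 3487 TPM in myoblasts. Of its 5 genes with a myoblast mean of at least 0.5 TPM, Spp1 alone reached the myoblast level (127%). Of 12 fibroblast and tendon markers 10 were tested, with Mfap5 higher and 4 lower, and the sums were 5522 to 6464 TPM with dexamethasone and 12160.4 to 13181 TPM in myoblasts. Of 15 macrophage, endothelial and neural markers 6 were tested, with Cd68 higher and Tubb3 and Mbp lower. The sums were 15.6 to 25.5 TPM with dexamethasone and 72.7 to 138 TPM in myoblasts, and the leukocyte and endothelial markers Ptprc, Adgre1, Pecam1 and Cdh5 were under 0.5 TPM in all 8 libraries. The call of Cd68 was lost when myoblast replicate 2 or 4 or dexamethasone replicate 2 or 3 was left out, and under quantile normalisation. Tubb3, a neuronal tubulin that myoblasts also express, had 14.9 ± 4.56 TPM with dexamethasone and 106 ± 27.0 TPM in myoblasts.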

How the data were processed

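Polyadenylated RNA of 24 C2C12 libraries (6 groups of 4) was sequenced from stranded libraries, per the labels' protocols. The submitters' processing notes name the build GRCm39 and, without saying what each did, kallisto 0.51.1, Salmon and DESeq. The authors deposited log2 values normalised between libraries by a method not given in the sources used here (range −2.33 to 20.06), and TPM computed by the authors, which sum to 1000000 per library. Neither table keeps depth, so no counting interval is given. Both list 48544 genes, and 48291 were given a symbol by identifier from a reference annotation.

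The deposited log2 values were fitted with limma 3.58.1 (limma-trend, R 4.3.3) over all 24 libraries with 6 group means, for 16257 genes with 2 to the power of the value of at least 10 in at least 4 libraries. Adjusted p-values are Benjamini-Hochberg over those genes, with a threshold of 0.05. A fold divides 1 group's mean TPM by the other's and is left out when either mean is under 0.5 TPM. Alternatives were log2(TPM + 0.1) and log2(TPM + 1) on 15250 genes, TPM scaled by library medians, no filter, quantile normalisation, the 2 groups alone, the replicate number as a block, each library left out and, chosen after seeing the data, log2(TPM + 0.1) without dexamethasone replicate 1. The fit was tested on simulated data.

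The comparison, the 28 gene lists and the genes named were chosen with earlier results of these data known. Named genes are the key members of the lists, the 10 largest rises and 10 largest falls in deposited log2 value with TPM that do not overlap and at least 5 TPM in the higher group, and the largest rise and fall of each list on that scale. A few other members are named only to complete a small count, and were chosen after their values were seen. Promoter sequences are RefSeq's (GRCm38.p6, not the build of the files) and were used for letters alone.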

Additional observations from a re-analysis of the deposited data

Results flagged for a closer look

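In 207 sets of 4 libraries (the TPM of a named gene in the dexamethasone 72 h or day 0 group), the highest or lowest library was examined for a gap to the nearest other, as a share of the range, above Dixon's 95% critical value. This held in 17 sets, and chance gives about 1 in 20. In 10 of the 17 the library apart was dexamethasone replicate 1. It was the highest for Ckm (629.6 TPM against 115 to 189 in the others), Col1a1 (109 against 5.95 to 14.6), Timp3 (49.4 against 8.70 to 12.1), Igf1 (24.2 against 0.365 to 1.39), Igf2 (149 against 31.4 to 44.3), Mybpc1 (160.3 against 35.2 to 52.5), Ckmt2 (9.93 against 1.57 to 2.09), Plau (28.5 against 11.0 to 13.3) and Cd248 (6.55 against 0.974 to 1.77). It was the lowest for Rb1 (40.2 against 59.1 to 62.1).

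In the other dexamethasone libraries, replicate 2 was apart for Gm26083 (2.06 TPM, listed at 0 in the others), and replicate 3 for Zbtb16 (3.74 against 2.35 to 2.54) and Ndufs3 (195 against 211 to 213). Among the myoblasts, replicate 1 was apart for Fabp4 (1.49 against 0.312 to 0.434), replicate 2 for Hmga2 (52.9 against 109.8 to 117) and Spry1 (1.74 against 3.99 to 4.05), and replicate 4 for Mylpf (103 against 141 to 147).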

How the results depend on the processing

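Against myoblasts, 4134 to 5282 genes were higher and 4330 to 5711 lower under the settings other than leaving out a library, and 4556 to 4813 and 5052 to 5370 with each library left out. The distance of dexamethasone cultures to myoblasts was 1.55 on log2(TPM + 0.1) and 0.703 without the filter, since the scale and the genes differ, and in both the myoblasts remained the farthest group. None of the 117 named genes reversed. Hmga2 lost its call under 10 settings, and Ccnd1 gained it when the 2 groups were fitted alone. The calls of Tap1 and Il6 (both higher than in myoblasts) were each lost when any of 3 libraries was left out, with the 2 groups alone, under quantile normalisation and by TPM without dexamethasone replicate 1. By TPM without dexamethasone replicate 1 the higher matrix genes numbered 3. Between myoblasts and day 7 myotubes, 4960 genes were higher and 3936 lower by TPM, and 3683 and 5516 with TPM scaled by library medians.

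Labels number the replicates alike in all groups. Deviations of same-numbered dexamethasone and myoblast libraries correlated at 0.06 to 0.09, under the limit for a pairing, and 3 of the 4 dexamethasone libraries correlated best with their own number. With the replicate number as a block, 5019 genes were higher and 5489 lower.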

Other observations

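Interferon response and antigen presentation genes, which had no place in the comparison above, were lower than in myoblasts for 11 of 19 members and higher for 2, beside 33.0% lower among all genes. The median was 55.7% of the myoblast level, beside 99.3% in vehicle 72 h cultures and 94.8% in day 7 myotubes. Against vehicle, 8 of the 19 were lower with dexamethasone and 0 higher, beside 15.2% of all genes in each direction. Oasl2, an antiviral gene that interferon induces, had 0.484, 0.0653, 0.0532 and 0.117 TPM in dexamethasone cultures and 1.25, 0.633, 1.34 and 1.07 TPM in myoblasts. The members that were higher were Ifi35 and Tap1, a peptide transporter (2.34 ± 0.635 TPM with dexamethasone against 1.53 ± 0.26 TPM in myoblasts). The call of Tap1 was lost when dexamethasone replicate 1 or myoblast replicate 1 or 3 was left out, when the 2 groups were fitted alone and under quantile normalisation.

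Of 12 chemokines and cytokines, 6 were lower and 1 higher. Cxcl5, which attracts neutrophils, had 5.71, 3.10, 2.08 and 2.19 TPM with dexamethasone and 54.4, 58.5, 39.7 and 47.2 TPM in myoblasts, with no overlap, and was 15.3-fold lower (adjusted p = 1.86e-10). Vehicle 72 h cultures had 16.0 ± 5.93 TPM. The member that was higher, Il6, had 0.884 ± 0.457 TPM with dexamethasone and 0.364 ± 0.147 TPM in myoblasts, and its call was lost when dexamethasone replicate 1 or 3 or myoblast replicate 4 was left out, when the 2 groups were fitted alone and under quantile normalisation.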
